A study of Sus scrofa with 24 samples.

Results

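The genes described here are the actin isoform genes of the pig. They were taken as the probe sets whose only annotated symbol on the Affymetrix porcine array was ACTC1, ACTA1, ACTA2, ACTG2, ACTB or ACTG1, with the array's own actin control probe sets left out. Of the 6 genes, 5 had a probe set, and none carried the symbol ACTA1, so skeletal alpha-actin was not analysed here. The 5 genes were read by 12 probe sets, of 6765 genes and 23999 probe sets in all. ACTC1 and ACTA2 had 1 probe set each, ACTG2 and ACTB had 2 each, and ACTG1 had 6. Where a gene had several, its level was taken from the one that was brightest on average over all 24 arrays. The others were described as well, because they did not always move together.

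Actins are the proteins that polymerise into the thin filaments of muscle and into the cytoskeleton of every cell. Vertebrates carry a small family of nearly identical isoforms: skeletal and cardiac alpha-actin (ACTA1 and ACTC1) in the sarcomere of striated muscle, smooth muscle alpha- and gamma-actin (ACTA2 and ACTG2) in vessel and gut wall, and cytoplasmic beta- and gamma-actin (ACTB and ACTG1) in all cells. Skeletal muscle is known to express the cardiac and smooth muscle alpha isoforms before birth and to depend mainly on skeletal alpha-actin in the adult.

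The study measured RNA of the longissimus dorsi, the long muscle of the back, in German Landrace (DL) and Pietrain (Pi) pigs. Each breed was sampled in fetuses at 35, 63 and 91 days post conception (dpc) and in adults, which made 8 groups of 3 RNA pools, lettered a to c. The groups follow the labelled stage. A free-text description speaks of peripubertal animals for the fetal pools too, against their source and stage labels, and the titles of the 35 dpc pools alone carry a letter K that is not explained. No treatment or genetic change is labelled for any group. The labels do not give the animals in each pool, their sex or the age of the adults. The p-values therefore measure the spread between pools, which may be technical in part.

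All values are log2 intensities that share 1 distribution on every array, with a median of 5.43 and a highest value of 16.10. A probe set was taken as above background when it exceeded the brightest of 23 unspiked control probe sets on its array, a level of 2.31 to 2.69. The pools of a group correlated at r = 0.98 or more at 35 and 63 dpc and least in adult Pi, at 0.926 to 0.942. Around the group means, the residual SD over all probe sets ran from 0.235 to 0.309 per array at 35 dpc and from 0.528 to 0.696 per adult array, the widest spread. All 18 measured markers of skeletal muscle fibres lay above background on every array. The 35 dpc pools also held strong neural signal, described beside the change from 35 to 63 dpc. In RNA of whole tissue, fewer cells of a type and less RNA per cell cannot be told apart.

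By their brightest probe sets, ACTC1, ACTA2, ACTG2 and ACTB were lower in adult than in late fetal muscle. The fall was 24.6-fold for ACTC1 and 2.28- to 3.93-fold for the others. The second probe sets of ACTG2 and ACTB did not pass in this step, with changes of -0.01 and 0.26. The brightest ACTG1 probe set rose 4.43-fold between 35 and 63 dpc and stayed near the top of the scale. The next brightest of ACTG1, Ssc.13874.1.S1_at, instead changed by -0.38 log2 units to 63 dpc and by -1.53 into adulthood, both past the test. In the averaged breeds, 6 of the 12 probe sets fell and 1 rose between 91 dpc and the adult (limma, Benjamini-Hochberg adjusted p below 0.05). This step changed 57.4% of all probe sets tested, so a call there was common. Between 35 and 63 dpc 5 of the 12 rose and 2 fell, against 44.2% of all probe sets called. Between 63 and 91 dpc 1 rose and 2 fell, against 18.3% of all. The median change of the 5 genes was 0.24, -0.18 and -1.24 in these steps in turn, beside 0.00, 0.00 and 0.06 for all probe sets.

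Changes between 35 and 63 dpc depended on the scaling, because scaling the arrays to their hybridisation controls moved the median of all probe sets in this step to -0.81. With that scaling ACTC1 changed by -0.69 (limma, adjusted p = 0.00409) and ACTA2 by -0.55 (adjusted p = 5.95e-05), and the -0.58 of ACTG2 did not pass (adjusted p = 0.0828). The brighter ACTB probe set changed by -1.12 and the brightest of ACTG1 by 1.34. Of the other probe sets, Ssc.10316.1.S1_at of ACTG2 changed by 0.48, and Ssc.13874.1.S1_at, Ssc.11166.1.S1_at and Ssc.13874.3.A1_at of ACTG1 by -1.19, 0.39 and 0.72, all past the test. The values that follow are on the deposited scale.

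**Figure D1:**
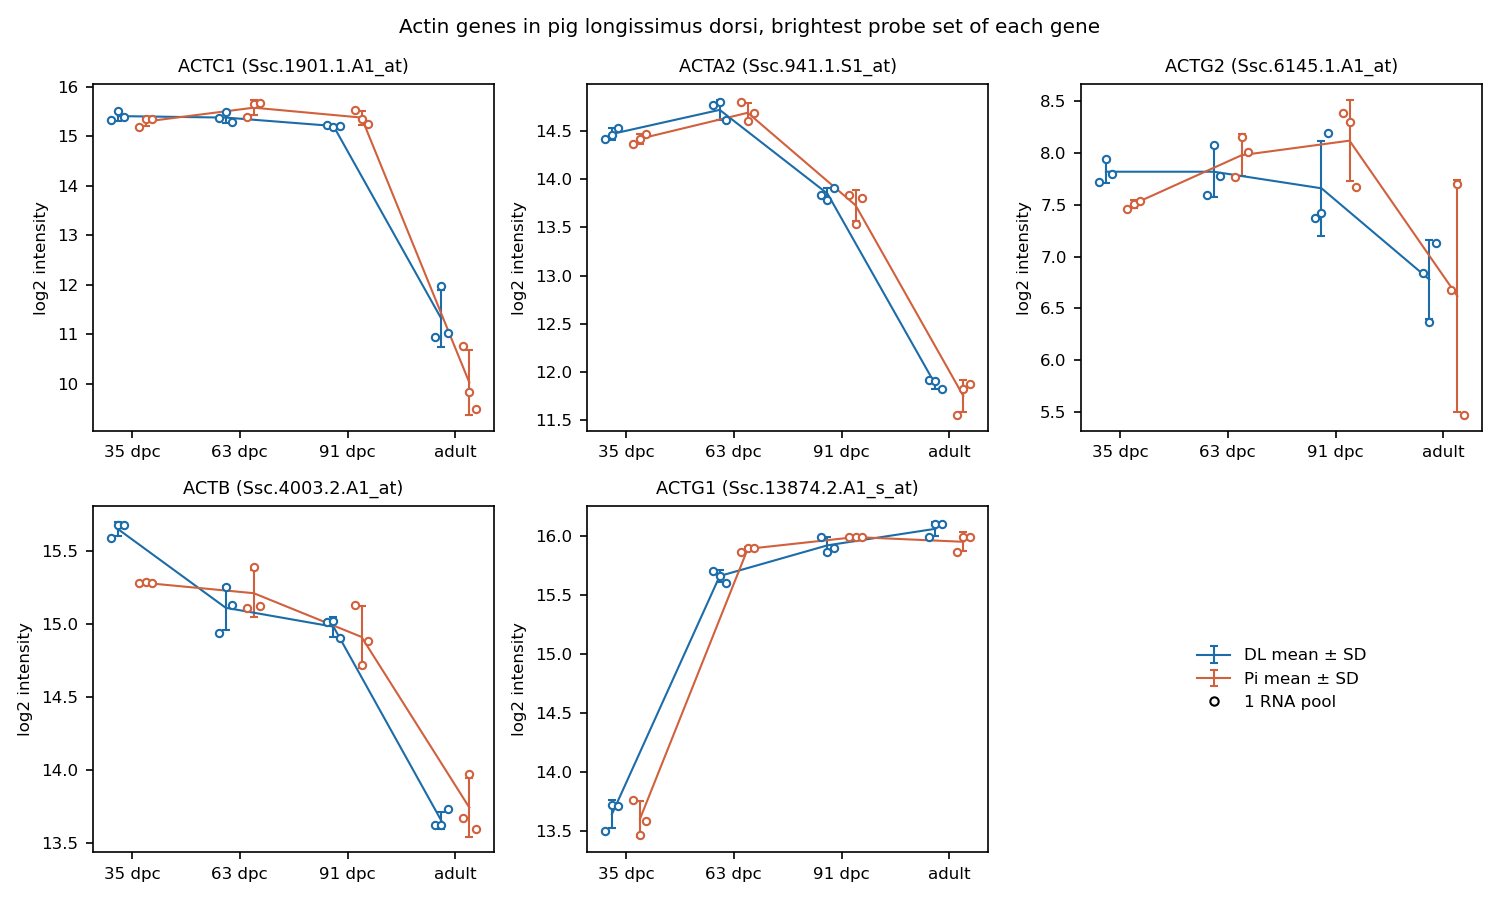
Log2 intensity (vertical axis) of the brightest probe set of each actin gene at 35, 63 and 91 dpc and in adults (horizontal axis), with 1 open circle per RNA pool and lines joining the group means with SD bars for DL and Pi (n = 3 pools each). ACTC1 lies at 15.18 to 15.68 in every fetal pool and at 9.49 to 11.98 in the adults, while ACTG1 goes from 13.46 to 13.76 at 35 dpc to 15.60 or more at each later stage.

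ACTC1 encodes cardiac alpha-actin, the isoform of the heart's thin filaments and of fetal skeletal muscle. In DL its 3 pools read 15.33, 15.51 and 15.40 at 35 dpc, 15.38, 15.49 and 15.29 at 63 dpc, and 15.22, 15.19 and 15.21 at 91 dpc. In Pi they read 15.18, 15.36 and 15.36, then 15.40, 15.65 and 15.68, then 15.53, 15.36 and 15.26 at the same stages. The 18 fetal pools thus lay between 15.18 and 15.68, and the probe set ranked between 12 and 56 from the top of each fetal array.

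Adult ACTC1 was far lower and much more variable. The DL pools read 10.94, 11.98 and 11.03, and the Pi pools 10.77, 9.84 and 9.49. No adult pool came within 3 log2 units of a fetal one, although all 6 remained well above background. From 91 dpc to the adult ACTC1 fell by 4.62 ± 0.18 (SE) log2 units, or 24.6-fold (limma, adjusted p = 2.62e-13). The change was -3.89 ± 0.26 in DL and -5.35 ± 0.26 in Pi. On the deposited scale neither fetal step passed the test: ACTC1 differed by 0.12 ± 0.18 between 35 and 63 dpc (adjusted p = 0.689) and by -0.18 ± 0.18 between 63 and 91 dpc (adjusted p = 0.635). In the order of the 8 groups, the 6 fetal means ran from 15.58 to 15.21 with each neighbour overlapping the next, followed without overlap by adult DL at 11.32 ± 0.57 (SD, n = 3) and adult Pi at 10.03 ± 0.66.

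ACTA2 encodes smooth muscle alpha-actin, the actin of vessel walls, pericytes and myofibroblasts, which is also made in immature striated muscle. It read 14.42, 14.46 and 14.53 in DL and 14.37, 14.42 and 14.47 in Pi at 35 dpc. At 63 dpc it reached its highest values, 14.77, 14.80 and 14.61 in DL and 14.80, 14.60 and 14.69 in Pi. The rise of 0.26 ± 0.07 was small but larger than the spread, with no overlap between the stages (adjusted p = 0.00294). Its direction turned with hybridisation-control scaling, as given above.

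From 63 dpc onward ACTA2 fell at each step in both breeds. At 91 dpc the pools read 13.84, 13.78 and 13.91 in DL and 13.84, 13.54 and 13.80 in Pi. Adults read 11.91, 11.90 and 11.82 in DL and 11.55, 11.82 and 11.87 in Pi. The groups of successive stages did not overlap. ACTA2 fell by 0.92 ± 0.07 log2 units between 63 and 91 dpc (1.9-fold, adjusted p = 1.43e-08) and fell by 1.97 ± 0.07 between 91 dpc and the adult (3.93-fold, adjusted p = 2.77e-14). The change in the later step was nearly the same size in both breeds, -1.97 ± 0.09 in DL and -1.98 ± 0.09 in Pi. Within each stage the breeds overlapped, so the order of the 8 groups was an order of stages: 63 dpc, 35 dpc, 91 dpc, adult.

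ACTG2 encodes smooth muscle gamma-actin, the main actin of gut wall muscle. Its brighter probe set, Ssc.6145.1.A1_at, read a middling signal with wide spread. In DL it gave 7.72, 7.94 and 7.80 at 35 dpc, 7.60, 8.08 and 7.78 at 63 dpc and 7.37, 7.42 and 8.19 at 91 dpc. In Pi it gave 7.46, 7.51 and 7.54, then 7.77, 8.16 and 8.01, then 8.39, 8.30 and 7.67. These fetal groups overlapped along the whole order, and the steps of 0.24 ± 0.27 and -0.01 ± 0.27 did not pass (adjusted p = 0.575 and 0.999). Adults read 6.84, 6.37 and 7.13 in DL and 6.68, 7.70 and 5.47 in Pi, where the pools differed by over 2 log2 units. From 91 dpc to the adult the probe set fell by 1.19 ± 0.27 (2.28-fold, adjusted p = 0.000997), although Pi pool b lay inside the range of the fetal pools.

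The other ACTG2 probe set, Ssc.10316.1.S1_at, gave a different course. It read 5.94, 5.85 and 5.71 in DL and 6.54, 6.43 and 5.68 in Pi at 35 dpc, and 7.03, 7.08 and 7.10 in DL and 7.51, 7.74 and 7.42 in Pi at 63 dpc. All 6 pools at 63 dpc lay above all 6 at 35 dpc, a rise of 1.29 ± 0.16 (2.44-fold, adjusted p = 2.75e-06). It did not change detectably into adulthood, by -0.01 ± 0.16 with a 95% confidence interval of -0.36 to 0.33. The adult fall of ACTG2 therefore rests on 1 of its 2 probe sets, and the early rise on the other.

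ACTB encodes beta-actin, the cytoplasmic isoform often used as a reference gene. Its brighter probe set, Ssc.4003.2.A1_at, read 15.59, 15.68 and 15.68 in DL and 15.28, 15.29 and 15.28 in Pi at 35 dpc. It read 14.94, 15.25 and 15.13 in DL and 15.11, 15.39 and 15.12 in Pi at 63 dpc, and 15.01, 15.02 and 14.90 in DL and 15.13, 14.72 and 14.88 in Pi at 91 dpc. Between 35 and 63 dpc it fell by 0.31 ± 0.08 in the averaged breeds (adjusted p = 0.00427), although single pools of the stages overlapped. The change was -0.54 ± 0.11 in DL (limma, adjusted p = 0.00111), and the -0.07 ± 0.11 in Pi did not pass (0.765). The test of the difference between the breeds in this step did not pass. The further -0.22 ± 0.08 to 91 dpc did not pass (adjusted p = 0.0754). That second step passed without DL 63 dpc pool a, without Pi 91 dpc pool a or without adult Pi pool b (adjusted p = 0.0415, 0.0214 and 0.0462).

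Adult ACTB pools read 13.62, 13.62 and 13.73 in DL and 13.67, 13.97 and 13.59 in Pi. Every adult pool lay below every fetal pool. ACTB fell by 1.24 ± 0.08 log2 units from 91 dpc, or 2.37-fold (adjusted p = 2.68e-10), and the fall was present in both breeds, at -1.32 ± 0.11 in DL and -1.16 ± 0.11 in Pi. The dimmer ACTB probe set, Ssc.4003.1.S1_at, showed no such fall. It ranged from 9.07 to 10.65 over the fetal pools and from 9.57 to 10.86 over the adult ones, and its adult change of 0.26 ± 0.16 did not pass (adjusted p = 0.177).

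ACTG1 encodes cytoplasmic gamma-actin. Its brightest probe set, Ssc.13874.2.A1_s_at, rose sharply in early development. It read 13.50, 13.72 and 13.71 in DL and 13.76, 13.46 and 13.58 in Pi at 35 dpc, and 15.70, 15.66 and 15.60 in DL and 15.86, 15.90 and 15.90 in Pi at 63 dpc. The increase was 2.15 ± 0.06 log2 units, 4.43-fold, with no overlap (adjusted p = 7.7e-16). At 63 dpc it already ranked 11 to 17 from the top in DL and 3 to 4 in Pi, so the top of the shared scale limits how large this fold could be. The suffix _s_at is the array maker's mark for a probe set that matches several transcripts, so which actin transcripts contributed to it cannot be told apart here.

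After 63 dpc this ACTG1 probe set was at the ceiling of the scale. The pools read 15.99, 15.86 and 15.90 in DL and 15.99 in all 3 of Pi at 91 dpc, and 15.99, 16.10 and 16.10 in DL and 15.86, 15.99 and 15.99 in Pi in adults. It ranked between 1 and 4 from the top of each adult array, and a probe set in those ranks has almost no room to rise further in values forced to 1 distribution. Its step of 0.18 ± 0.06 to 91 dpc passed (adjusted p = 0.0294), but not without any of 7 single pools: DL 63 dpc pools b and c, DL 91 dpc pool a, Pi 63 dpc pool a and Pi 91 dpc pools a, b and c, with adjusted p from 0.05 to 0.0735. The adult change of 0.05 ± 0.06 did not pass (adjusted p = 0.457).

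The next brightest ACTG1 probe set, Ssc.13874.1.S1_at, moved the opposite way. It read 15.01, 15.20 and 15.00 in DL and 14.86, 15.41 and 15.12 in Pi at 35 dpc, and 14.50 to 14.85 over the 12 pools at 63 and 91 dpc. Adults read 12.93, 12.89 and 13.38 in DL and 13.25, 13.25 and 13.22 in Pi. It fell by 0.38 ± 0.10 between 35 and 63 dpc (adjusted p = 0.00288) and fell by 1.53 ± 0.10 between 91 dpc and the adult (2.88-fold, adjusted p = 1.52e-10), both without overlap. Over the 8 group means its course differed from that of the brighter ACTB probe set by a root-mean-square 0.15 log2 units after centring (r = 0.98), and from that of the _s_at probe set of the same gene by 1.56 (r = -0.58). These are descriptions over 8 means of the same 24 arrays.

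The 4 other ACTG1 probe sets shared no common course either. Ssc.11166.1.S1_at rose by 1.20 ± 0.12 between 35 and 63 dpc (2.3-fold, adjusted p = 2.06e-07), from 7.81 to 8.61 in the 6 earlier pools to 8.97 to 9.60 in the later ones. Ssc.9052.1.S1_at rose by 2.37 ± 0.29 into adulthood (5.19-fold, adjusted p = 1.22e-06), with adults at 7.39 to 8.46 and every fetal pool at 6.57 or less. Ssc.13874.3.A1_at did the reverse: it rose by 1.54 ± 0.27 to 63 dpc (adjusted p = 0.000127), fell by 1.34 ± 0.27 to 91 dpc (adjusted p = 0.00163) and was not above background in any of the 6 adult pools. Against 91 dpc it was therefore at least 6.27-fold lower in adults (limma, adjusted p = 8.73e-09), taking for each adult array the higher of its background level and its own value. Ssc.11166.2.A1_at lay at 2.0 to 2.14 and was not above background on any of the 24 arrays.

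**Figure D2:**
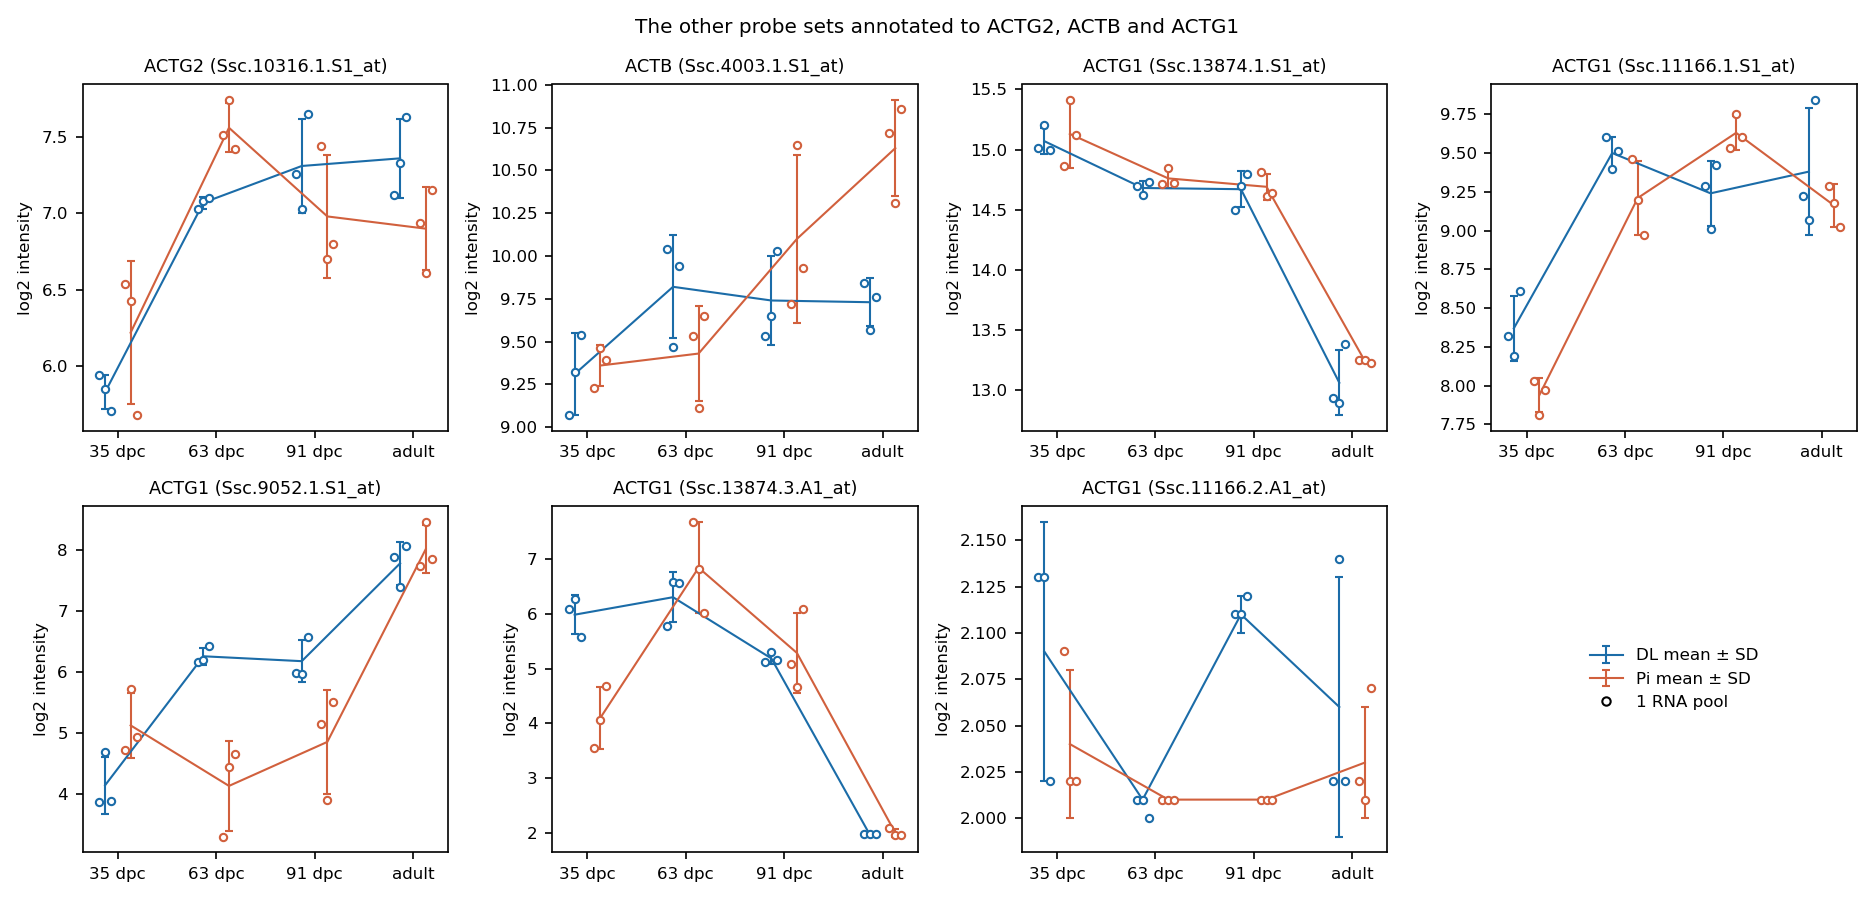
Log2 intensity (vertical axis, a separate scale in each panel) of the 7 further probe sets annotated to ACTG2, ACTB and ACTG1 by stage (horizontal axis), with 1 open circle per RNA pool and group means with SD bars for DL and Pi. Ssc.13874.1.S1_at falls to 12.89 to 13.38 in the adults while Ssc.9052.1.S1_at rises to 7.39 to 8.46, and Ssc.11166.2.A1_at stays at background throughout.

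**Figure D3:**
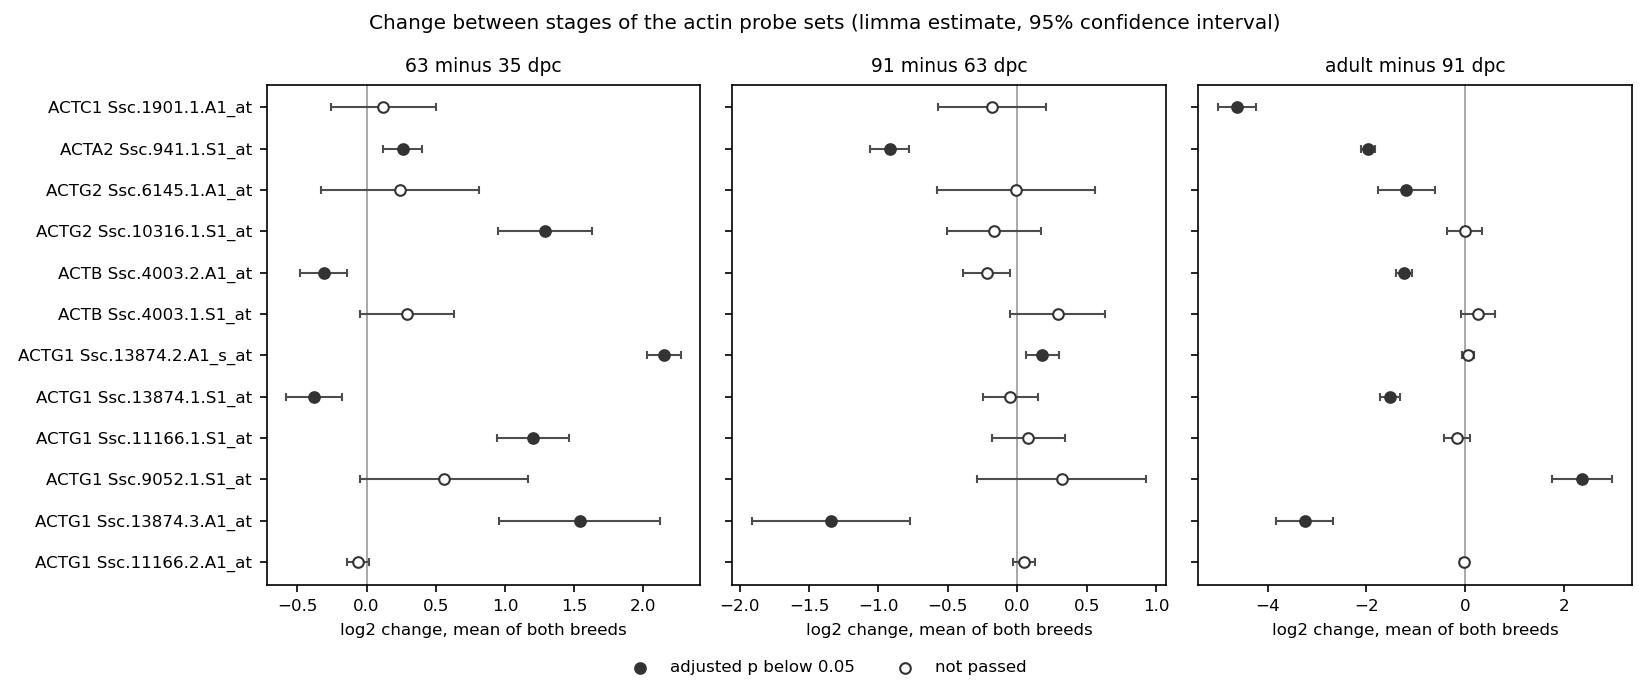
Estimated log2 change of each of the 12 actin probe sets (rows) between successive stages, averaged over the breeds, with 95% confidence intervals from the limma fit; filled points passed at an adjusted p below 0.05. Of the 12, 5 rose and 2 fell between 35 and 63 dpc, 1 rose and 2 fell between 63 and 91 dpc, and 1 rose and 6 fell between 91 dpc and the adult.

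The breeds were compared at each stage, Pi minus DL, and in the size of each step. Of the 5 genes' leading probe sets, only ACTC1 in adults passed: in Pi it was lower by 1.28 ± 0.26 log2 units, or 2.43-fold (limma, adjusted p = 0.00606). Among all probe sets 6.33% were called in adults. The 2 groups did not overlap, but only narrowly, since the highest Pi pool read 10.77 and the lowest DL pool 10.94. The call held in all 24 fits that left out 1 pool, with differences from -1.65 to -0.95. It was lost in a fit restricted to these 6 arrays, where the SE was 0.46 (limma, adjusted p = 0.432). The SE of 0.26 comes from a spread shared by all 8 groups and is smaller than the adult pools alone give. The SD of ACTC1 was 0.57 in adult DL and 0.66 in adult Pi, against 0.02 to 0.15 in the fetal groups. In fetuses ACTC1 differed between the breeds by -0.11, 0.19 and 0.18 at 35, 63 and 91 dpc, none past the test, with 95% confidence intervals that together spanned -0.66 to 0.74.

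The fall of ACTC1 from 91 dpc to the adult was larger in Pi than in DL, with a difference of -1.46 ± 0.36 log2 units (interaction in limma, adjusted p = 0.0411), where 2.66% of all probe sets were called. This call was close to the threshold. It was lost in 20 of the 24 fits without 1 pool, the exceptions being those without adult Pi pool a, adult DL pools a or c, or Pi 63 dpc pool a. The estimate in these fits lay between -1.83 and -1.13. It was lost with group weights (adjusted p = 0.0682) and with hybridisation-control scaling (-1.35, adjusted p = 0.0982). It was also lost in a fit of the compared groups alone, where the SE was 0.49 (adjusted p = 0.291). Calls of the other alternatives are given in the closing section.

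For the leading probe sets of the remaining genes no breed difference passed. ACTA2 differed by at most 0.13 at any stage, with every 95% confidence interval between -0.32 and 0.17. ACTB at 35 dpc read lower in all 3 Pi pools than in any DL pool, a difference of -0.37 ± 0.11 that did not pass (adjusted p = 0.0903). ACTG1 read by its brightest probe set read higher in all 3 Pi pools than in any DL pool at 63 dpc, a difference of 0.23 ± 0.08 that did not pass either (adjusted p = 0.189). ACTG2 intervals were the widest, as at 91 dpc with a difference of 0.46 and an interval of -0.35 to 1.27, while those at 63 dpc and in adults ran from -0.64 to 0.97 and from -0.97 to 0.64. At 35 dpc ACTG2 read lower in all 3 Pi pools than in any DL pool. That difference of -0.31, with an interval of -1.12 to 0.49, did not pass. These are values on the deposited scale. With hybridisation-control scaling Pi exceeded DL at 35 dpc by 0.46 for ACTA2 and 0.47 for ACTG1 (limma, adjusted p = 0.0151 and 0.00244), and ACTA2 at 91 dpc was at -0.44 (adjusted p = 0.0482). That scaling moved the median of all probe sets to 0.51 at 35 dpc and to -0.32 at 91 dpc.

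**Figure D4:**
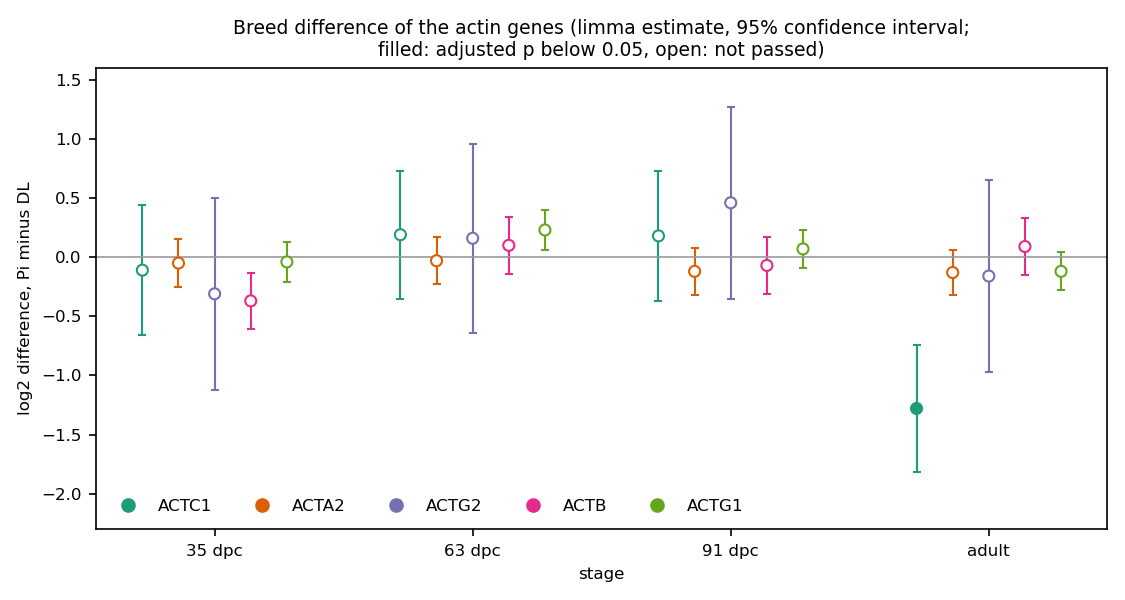
Log2 difference, Pi minus DL (vertical axis), of the leading probe set of each of the 5 actin genes at each stage (horizontal axis), with 95% confidence intervals from the limma fit; filled points passed at an adjusted p below 0.05. ACTC1 in adults, at -1.28, is the filled point; the other 19 are open.

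Of the 12 probe sets, 1 was lower in Pi at 35 dpc, where 4.03% of all probe sets were called, 1 was lower at 63 dpc against 1.37%, and none passed at 91 dpc against 2.72%. In adults 1 was lower and 1 higher, where 6.33% of all probe sets were called. At 35 dpc it was the ACTG1 probe set Ssc.13874.3.A1_at, with 6.10, 6.28 and 5.58 in DL against 3.55, 4.06 and 4.69 in Pi, a difference of -1.88 ± 0.39 (adjusted p = 0.00823, and 0.0583 in a fit of these 6 arrays alone). At 63 dpc it was Ssc.9052.1.S1_at, also of ACTG1, with 6.17, 6.20 and 6.42 in DL against 3.31, 4.45 and 4.66 in Pi, a difference of -2.13 ± 0.41 (adjusted p = 0.0142). This was lost without DL 63 dpc pool c or Pi 63 dpc pool a (adjusted p = 0.055 and 0.0666) and in a fit of the 6 arrays at 63 dpc alone (0.11).

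In adults the dimmer ACTB probe set, Ssc.4003.1.S1_at, was higher in Pi. It read 9.84, 9.57 and 9.76 in DL and 10.72, 10.31 and 10.86 in Pi, without overlap, a difference of 0.91 ± 0.23 (adjusted p = 0.0236). It was lost without adult DL pool b, adult Pi pool a or adult Pi pool c (adjusted p = 0.0729, 0.0563 and 0.0799), with group weights (0.433), in a fit of the adult arrays alone (0.225) and with hybridisation-control scaling (0.0533). The brighter ACTB probe set differed by only 0.09 ± 0.11 (adjusted p = 0.758).

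In the steps themselves, 2 of the 12 probe sets differed between the breeds from 35 to 63 dpc, where 3.3% of all probe sets were called, and none from 63 to 91 dpc, where limma called 0.0917%. Both were ACTG1 probe sets, and they went opposite ways. Ssc.9052.1.S1_at rose by 2.11 ± 0.41 in DL (adjusted p = 0.000525), while its change of -1.0 ± 0.41 in Pi did not pass (0.0666), a difference between the breeds of -3.11 ± 0.58 (adjusted p = 0.00599). Ssc.13874.3.A1_at rose by 2.75 ± 0.39 in Pi (adjusted p = 1.48e-05), while its change of 0.33 ± 0.39 in DL did not pass (0.649), a difference of 2.42 ± 0.54 (adjusted p = 0.0208). This was lost without DL 35 dpc pool b or DL 63 dpc pool a (adjusted p = 0.0541 and 0.0607) and in a fit of the compared groups alone (0.0574). The adult step differed for ACTC1 alone among the 12.

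Markers of muscle fibres differed between the breeds beside these calls. At 35 dpc 6 of the 18 myofibre markers were lower in Pi and none was higher, where 4.03% of all probe sets were called. The largest were the glycogen phosphorylase PYGM at -1.26 ± 0.08, the calcium pump ATP2A1 at -1.19 ± 0.17 and the creatine kinase CKM at -1.03 ± 0.10. The log2 summed level of the 18 was 16.54 to 16.66 in DL and 16.38 to 16.47 in Pi. In the step to 63 dpc the change of 5 of the 18 was higher in Pi than in DL and that of none lower, by the test of the difference. Of all probe sets 3.3% were called there. At 63 dpc itself none of the 18 differed between the breeds, where 1.37% of all probe sets were called. In adults 2 of the 18 were lower in Pi and none higher, against 6.33% of all probe sets called. Summed levels there were 19.07 to 19.11 in DL and 19.04 to 19.09 in Pi. These values are on the deposited scale. Scaling to hybridisation controls moved the median of all probe sets to 0.51 between the breeds at 35 dpc. It moved that of the breed difference in the step to 63 dpc to -0.63. The part of myofibre content in the breed differences of the actin probe sets was not tested.

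Actin is built into filaments with partner proteins, and lists of these genes were examined beside the actins. For every list below, the share of all probe sets called was 44.2% to 63 dpc, 18.3% to 91 dpc and 57.4% into adulthood. Of 16 measured genes of the thin filament and its length control, 8 rose and 2 fell from 35 to 63 dpc (median change 0.71), 6 rose and 1 fell to 91 dpc (0.14), and 8 rose and 3 fell into adulthood (0.21). TMOD4, a tropomodulin that caps thin filaments of skeletal muscle, rose by 5.08 ± 0.20, 3.69 ± 0.20 and 3.19 ± 0.20 in the 3 steps, from a level near background at 35 dpc. TPM4, a tropomyosin of the cytoskeleton, fell by 1.87 ± 0.10 in the last one. The 26 genes of actin monomer binding, severing and nucleation were divided, with 9 rising and 10 falling to 63 dpc, 2 and 10 to 91 dpc, and 9 and 13 into adulthood. TMSB10, thymosin beta 10, which sequesters actin monomers, fell by 2.62 ± 0.05 in adults, while the formin FHOD3, which builds sarcomeric actin filaments, rose by 3.21 ± 0.22.

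Actin genes are known targets of serum response factor and its myocardin-related cofactors. Of 11 measured genes of that list, 6 rose and 1 fell to 63 dpc, 2 rose and 3 fell to 91 dpc, and 5 rose and 2 fell into adulthood (median changes 0.68, 0.13 and 0.31). The factor's own gene SRF and the cofactor genes MRTFA and MRTFB were not measured, while MYOCD was among the 11. CSRP2, a LIM protein of smooth muscle, fell by 3.01 ± 0.16 in adults, whereas ANKRD1, an ankyrin repeat protein of muscle, rose by 6.04 ± 0.26.

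The cardiac actin gene was set beside other cardiac and fetal sarcomere genes. Into adulthood 9 of 15 rose and 3 fell, with a median change of 0.47. MYL4, the atrial and embryonic myosin light chain, fell by 8.14 ± 0.33 log2 units. CASQ2, the cardiac calsequestrin, fell by 5.57 ± 0.41, and TNNT2, cardiac troponin T, fell by 4.22 ± 0.21. These 3 genes were named for having the largest changes of the list, and the 9 that went the other way are not named. The list also holds genes of slow skeletal fibres, such as MYH7 and TNNI1. To 63 dpc 9 of the 15 rose and 2 fell, and to 91 dpc 4 rose and 6 fell. In adults, where ACTC1 was lower in Pi, 2 of the 15 were lower in Pi than in DL and 13 did not pass. The median difference of the 15, Pi minus DL, was -0.12, and 6.33% of all probe sets were called. The 2 were CASQ2 at -4.39 ± 0.58 (limma, adjusted p = 0.000202) and TNNI1 at -0.39 ± 0.08 (adjusted p = 0.00537). Between 10 and 12 of the 15 lay above background in every pool of a group. In all pools of a group, the cardiac transcription factor GATA4 was at background in the 6 fetal groups but not in adults, and the natriuretic peptide genes NPPA and NPPB in 4 and 2 of the 8 groups.

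Markers of cell types that hold the smooth muscle and cytoplasmic actins also moved with stage. Of 14 smooth muscle and pericyte markers, 9 fell and 2 rose into adulthood (median -1.37). MCAM, a surface protein of pericytes and endothelium, fell by 3.75 ± 0.49, and MYL6, a non-sarcomeric myosin light chain, fell by 2.49 ± 0.08. MYLK, the kinase that starts smooth muscle contraction, was at background in 6 of the 8 groups. Their log2 summed level was 15.41 to 15.56 in DL and 15.41 to 15.44 in Pi at 91 dpc, and 15.00 to 15.34 in DL and 14.77 to 14.92 in Pi in adults. Of 10 fibroblast and matrix markers, 9 fell and none rose (median -2.60), and their summed level went from 15.99 to 16.09 in DL and 16.02 to 16.35 in Pi to 13.51 to 13.59 and 13.28 to 13.75. Among the 10 endothelial markers 6 fell and 1 rose, from summed levels of 12.84 to 13.06 in DL and 12.49 to 12.64 in Pi to 11.45 to 11.57 and 11.70 to 11.81. The part of these cells in the adult fall of ACTA2, ACTG2, ACTB and the ACTG1 probe sets was not tested.

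Between 63 and 91 dpc, when ACTA2 fell, 5 of the smooth muscle and pericyte markers rose and 2 fell, and 9 of 10 endothelial markers rose. Between 35 and 63 dpc the smooth muscle markers rose in 9 of 14 cases and fell in 2. The list includes DES and SYNM, which are also genes of skeletal muscle fibres. DES rose by 3.08 ± 0.08 to 63 dpc and SYNM by 1.45 ± 0.12 to 91 dpc. MYH11 and LMOD1 of the list were not measured. The median change of the 14 smooth muscle and pericyte markers between 63 and 91 dpc was 0.04. Their log2 summed level, in which the brightest members weigh most, was 15.15 to 15.31 in DL and 15.15 to 15.22 in Pi at 63 dpc. At 91 dpc it was 15.41 to 15.56 in DL and 15.41 to 15.44 in Pi. The part of smooth muscle cells in the fall of ACTA2 between 63 and 91 dpc was not tested.

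**Figure D5:**
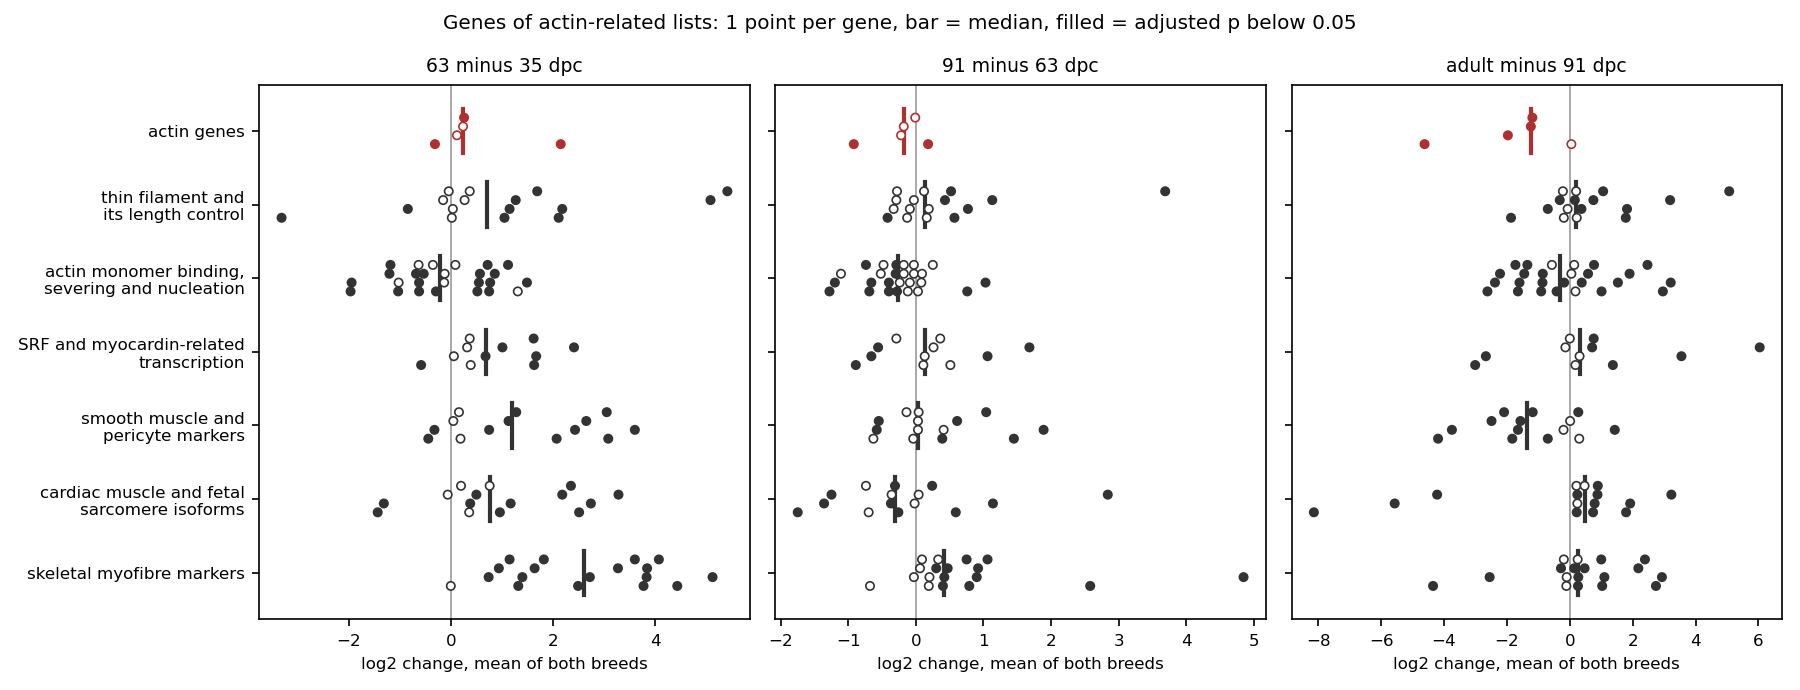
Log2 change between successive stages, averaged over the breeds (horizontal axis), of the 5 actin genes (top row) and the measured genes of 6 lists, with 1 point per gene, a bar at the median and filled points for an adjusted p below 0.05. In the adult step the actin genes have a median of -1.24 and the smooth muscle and pericyte markers of -1.37, while the thin filament list lies at 0.21 and the skeletal myofibre markers at 0.27.

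Marker levels of nerve and muscle fibres moved in the early step as well. Of 9 measured neural markers, 8 fell and none rose from 35 to 63 dpc, and their log2 summed level went from 15.55 to 15.74 in DL and 15.38 to 15.70 in Pi to 8.09 to 8.49 and 8.05 to 8.26. SNAP25, a synaptic protein, was at background in every group after 35 dpc. Of 18 skeletal myofibre markers, 17 rose and none fell, from summed levels of 16.54 to 16.66 in DL and 16.38 to 16.47 in Pi to 18.16 to 18.18 and 18.09 to 18.14. The part of either in the early changes of ACTA2, ACTB, ACTG1 and ACTG2 was not tested.

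Signs of RNA quality also moved with stage, in different directions. The difference between the 3′ and 5′ control probe sets of GAPDH had group means of 0.56 to 1.16 log2 units in fetuses and of -0.42 in adult DL and -0.59 in adult Pi. At 35 dpc they were 0.64 in DL and 1.16 in Pi. The same difference for the array's actin controls had means of 2.37, 1.35, 1.94 and 2.32 in DL and of 2.49, 1.52, 1.91 and 2.52 in Pi at 35, 63 and 91 dpc and in adults, so it was lowest at 63 dpc and higher in adults than at 91 dpc. Both differences spread most between the pools of DL at 91 dpc, from 0.25 to 1.16 for GAPDH and from 1.41 to 2.99 for the actin controls. The part of either in the changes of the actin probe sets was not tested.

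The genes whose 8 group means were most like those of each actin were found among 5911 genes above background, by the root-mean-square difference of the centred means. For ACTC1 these were TSPAN12 at 0.21, FKBP10 at 0.28, GEM at 0.33, GALNT7 at 0.37, MYF5 at 0.38, FAP at 0.41, and PEG3 and LAMB1 at 0.42 each. MYF5 is a myogenic transcription factor and FAP a fibroblast surface protease. For ACTA2 the nearest were TMEM132A at 0.14, SRI at 0.17 and VIM, the intermediate filament vimentin, at 0.20. For ACTB they were CALU and ANP32B, both at 0.13, and for ACTG2 EIF6 at 0.13 and MTCH1 at 0.15. The brightest ACTG1 probe set was most like RHOG at 0.16, NCLN at 0.17 and FITM1 at 0.19, followed by the sarcomeric tropomyosins TPM2 and TPM1 at 0.20, and Ssc.13874.1.S1_at was most like the ribosomal gene RPL5 at 0.09. These neighbours depend on the measure: of the 8 nearest genes to each leading probe set, 0 to 3 were also among the 8 with the highest Pearson correlation, and 1 to 4 among the 8 nearest over the 24 pools.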

How the data were processed

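RNA of 24 pools was measured on Affymetrix porcine arrays. The deposited values are log2 intensities, 1 per probe set; the base is taken from their range (1.60 to 16.10). The authors' processing used GCOS 1.1.1, per the submitters' processing notes. The method that summarised probes into probe sets was not given in the sources used here. Sorted values were identical on all 24 arrays, so the deposited log2 values were quantile-normalised, and they were used unchanged.

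The 124 control probe sets were left out, and 23999 were tested. Of these, 10069 carried 1 gene symbol in GEO's platform annotation, 198 several and 13732 none, and only those with 1 were named. The 8 groups entered 1 linear model, fitted to all 24 arrays with limma 3.58.1 in R 4.3.3 (16 residual and 1.31 prior degrees of freedom), with 16 contrasts, two-sided tests, Benjamini-Hochberg adjustment over all tested probe sets in each contrast and a threshold of 0.05. Errors are SE of the fit unless called SD, and 95% confidence intervals come from the same fit. Array number, not depth, limits the precision. Scripts were tested on simulated data.

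Named genes were all actin probe sets, up to 3 of the largest passing changes of a list and the 8 nearest genes to each actin. The members and lists were chosen with earlier results of these data known. Alternatives were group array weights, an intensity trend with robust prior, omission of dim probe sets, only the groups compared, scaling to hybridisation controls, a block for the pool letter, another probe set (for ACTG2), and each pool left out. Pools of the same letter did not deviate together (correlations -0.08 to 0.09 over 84 pairs), so no pairing was used. The same alternatives for ACTA2, ACTB and ACTG1 were added after seeing the data. The files name no genome build, so positions and sequences were not used here.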

Additional observations from a re-analysis of the deposited data

Results flagged for a closer look

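In 3 cases a step between stages differed between the breeds by the test of that difference. The ACTC1 probe set fell more in Pi than in DL from 91 dpc to the adult, with a difference of -1.46 log2 units. The ACTG1 probe set Ssc.9052.1.S1_at differed by -3.11 from 35 to 63 dpc, with a change of 2.11 in DL and of -1.0 in Pi. The ACTG1 probe set Ssc.13874.3.A1_at differed by 2.42 in the same step, with a change of 0.33 in DL and of 2.75 in Pi.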

How the results depend on the processing

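The changes of ACTC1, ACTA2 and ACTB into adulthood kept their direction and their call under every alternative fit of their brightest probe set, the 24 that each left out 1 pool included, as did that of ACTG2. Another probe set was put in place of the brightest as an alternative for ACTG2 only; the dimmer one of ACTB gave 0.26 into adulthood (adjusted p = 0.177). The largest source of dependence was scaling to the hybridisation controls, which moved the median of all probe sets from 0.00 to -0.81 between 35 and 63 dpc, from 0.00 to -0.15 to 91 dpc and from 0.06 to -0.14 into adulthood, and the breed medians to 0.51, -0.11, -0.32 and -0.22 at the 4 stages. With it 11.9%, 31.0% and 39.9% of the called probe sets rose in the 3 steps (50.3%, 48.6% and 53.7% as reported), 98.1%, 22.2%, 6.1% and 19.6% were higher in Pi at the 4 stages (40.1%, 48.9%, 49.5% and 45.7%), and 2.1%, 16.7% and 59.5% of the called breed differences in the steps were positive (60.0%, 36.4% and 44.7%).

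Under this scaling the change to 63 dpc was -0.69 for ACTC1 and -0.55 for ACTA2, both past the test, and -0.58 for ACTG2, the ACTB change to 91 dpc passed at -0.36, and the ACTG1 change was 0.04 to 91 dpc and -0.15 into adulthood. Pi minus DL at 35 dpc became 0.40 for ACTC1, 0.46 for ACTA2, 0.20 for ACTG2, 0.14 for ACTB and 0.47 for ACTG1, of which ACTA2 and ACTG1 passed. At 91 dpc it became -0.14 for ACTC1, -0.44 for ACTA2, which passed, and -0.25 for ACTG1, and for ACTB it was -0.02 at 63 dpc and -0.12 in adults. The breed difference in the step to 63 dpc became -0.32 for ACTC1 and -0.15 for ACTG2, and the adult one of ACTC1 -1.35.

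The adult breed difference in the step of ACTC1 kept its size of -1.46 but lost its call with the replicate block (adjusted p = 0.0509), group weights (0.0682) and only the groups compared (0.291). The block changed no other call, and 47 of 168 pool sets correlated best with their own letter. The labels do not say what the letters stand for. With only the groups compared the adult difference of ACTC1 (-1.28) lost its call and that of ACTB at 35 dpc (-0.37) gained one, as it did with group weights. The ACTB change to 91 dpc (-0.22) passed with group weights and with the intensity trend, and the ACTG1 change to 91 dpc (0.18) was lost without dim probe sets. The other ACTG2 probe set gave 1.29 to 63 dpc, -0.01 into adulthood, 0.39 and -0.33 for Pi minus DL at 35 and 91 dpc, and -0.82 for the breed difference in the step to 91 dpc. ACTC1 and ACTA2 have no other probe set. The cause of these changes was not tested.

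The counts of called probe sets changed by over 1.5 times as follows. Scaling gave 17663 for the step to 63 dpc (10611 as reported), 8423, 212 and 2550 for Pi minus DL at 35, 63 and 91 dpc (966, 329 and 653), and 7065 and 378 for the breed difference in the first and last steps (793 and 638). Group weights gave 2755, 836 and 228 for Pi minus DL at 35 and 63 dpc and in adults (1519), and 2017, 54 and 120 for the breed difference in the 3 steps (22 for the middle one). Only the groups compared gave 11, 16 and 21 for Pi minus DL at 63 and 91 dpc and in adults, and 1395, 7 and 80 for the 3 step differences.

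Leaving out 1 pool at a time gave 581 to 1032, 163 to 464 and 248 to 1257 calls for Pi minus DL at 35, 63 and 91 dpc, and 466 to 894, 9 to 115 and 353 to 945 for the step differences. It gave -1.83 to -1.13 and -0.10 to 0.04 for the breed difference of ACTC1 in the last and middle steps, -0.09 to 0.02 for ACTA2 between breeds at 63 dpc, -0.14 to 0.10 for the ACTG2 change to 91 dpc and -0.70 to 0.41 for its adult breed difference. For ACTB it gave -0.27 to -0.17 for the change to 91 dpc, -0.18 to 0.03 and -0.02 to 0.17 between breeds at 91 dpc and in adults, and for ACTG1 0.16 to 0.20 for the change to 91 dpc and -0.12 to 0.03 between breeds at 35 dpc. Precision is limited by having 3 arrays in a group.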

Other observations

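The array's own actin control probe sets, which were left out of the genes above, did not follow a common course. By group means, those named AFFX-Ss_Actin were higher at each stage after 35 dpc. Those named AFFX-Ssc-actin were lower in adults than at any fetal stage. AFFX-Ss_Actin_3_s_at had group means of 13.63, 15.48, 15.72 and 15.74 in DL and of 13.51, 15.44, 15.65 and 15.78 in Pi at 35, 63 and 91 dpc and in adults. AFFX-Ssc-actin-M_at had means of 14.15, 14.12, 14.12 and 12.73 in DL and of 14.05, 14.17, 13.92 and 12.91 in Pi.

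The probe set Ssc.17611.1.S1_at is annotated to both AK1 and ACTG1 and was named for neither. Its group means were 10.09, 12.26, 13.05 and 15.00 in DL and 9.66, 12.89, 13.11 and 15.08 in Pi.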
